A study of Mus musculus with 4 samples.

Results

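Of 1905 domain boundaries found in Hi-C profiles of mouse bone marrow progenitors, 282 (14.8%) lay inside the negative compartment, and these 282 are described here. A boundary was a 20 kb bin whose insulation score, averaged over 4 libraries, was the lowest within 10 bins (200 kb) on each side. It also had to lie 0.2 or more under the average of the highest score to its left and the highest score to its right. It was counted inside the negative compartment when its own 200 kb bin and both neighbouring bins had a compartment eigenvector below 0 in the wildtype. The boundaries were thus chosen by the mean insulation score of all 4 libraries and by the wildtype eigenvector, and these values are given as a description.

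The study compared Stag2 wildtype with Stag2 knock-out haematopoietic progenitors, with 2 Hi-C libraries per genotype. The cells were marrow cells left after removal of those carrying lineage markers, and all libraries followed Hi-C 2.0 with the enzyme DpnII. The labels give no strain, age, allele or driver of the deletion, and nothing in them tells whether libraries of the same genotype stem from different animals, so that the spread between them may be technical. The titles of replicate 2 of both genotypes carry a suffix, T1, that is not explained. No expression values were analysed here, so the cell type was not checked against marker genes.

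Cohesin is a ring-shaped complex that extrudes loops of chromatin and is halted at sites bound by CTCF, which gives rise to many domain boundaries. Stag2 encodes one of the alternative subunits that sit on the ring. Compartments are a coarser division, in which active and inactive chromatin each contact their own kind. The sign of an eigenvector is arbitrary until it is set by an independent mark, and the sources used here do not state how it was set. The negative compartment is therefore named by its sign alone, and coordinates are those of mm9.

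An insulation score is low where few contacts cross a position. For each boundary, the floor is the score at its bin, the flank is the mean of the scores at the highest bin on each side, and the depth is the flank minus the floor. Flank positions were taken once from the mean profile and read in each library. Neither the log base of the score nor the number of reads behind a library is stated, and sequencing depth is unknown. Of 131957 bins, 117252 had a score in all 4 libraries. The SD of the scores over these bins was 0.432 and 0.438 in wildtype and 0.452 and 0.464 in knock-out.

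Boundaries were sparse in the negative compartment. There were 3.11 per 10 Mb of scored sequence there, against 8.67 in the positive compartment (770 boundaries) and 15.7 at compartment borders (841 boundaries). Local minima numbered 879, 982 and 932 in these contexts, and 32.1%, 78.4% and 90.2% of them reached the depth minimum of 0.2. The densities depend on the depth minimum, and no test is attached to them. Before it was applied, local minima were already densest at borders. Scored sequence there was 535 Mb, against 905 Mb in the negative and 888 Mb in the positive compartment. The median depth in the mean profile was 0.311 in the negative compartment (quartiles 0.253 and 0.415), 0.345 in the positive compartment and 0.467 at borders. The domains on the 2 sides of a negative-compartment boundary had a median mean length of 1260 kb (249 boundaries with a boundary on both sides), against 840 kb in the positive compartment.

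Most of the 282 troughs reached beyond the 200 kb window. The highest flanking bin lay at the outer edge of the window on the left for 219 of them and on the right for 245, and on both sides for 188 (66.7%, against 52.1% in the positive compartment). Averaged over the 282, the score went on rising to 440 kb from the boundary bin. Depth here is therefore the drop within the window and not the full height of the trough.

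The deepest negative-compartment boundary was on chromosome 4 from 113900001 to 113920000, with a depth of 0.761 in the mean profile. Its depth was 0.724 and 0.840 in wildtype and 0.618 and 0.864 in knock-out. The knock-out libraries lay on either side of the wildtype libraries there. The next deepest, on chromosome 17 from 37440001 to 37460000, had depths of 0.739 and 0.675 in wildtype and 0.676 and 0.677 in knock-out. The other boundaries among the 6 deepest were on chromosome 13 from 89740001, chromosome 11 from 90580001, chromosome 17 from 83380001 and chromosome 5 from 16420001, with depths from 0.687 down to 0.641. None of the 6 passed the test for a change in depth described below (adjusted p from limma between 0.401 and 0.808). At the other end, the boundaries just inside the depth minimum were on chromosome 4 from 24180001, chromosome 11 from 27040001 and chromosome 17 from 93440001, with depths of 0.2002, 0.2003 and 0.2006. The local minima just outside were on chromosome 4 from 25960001 (0.199), chromosome 9 from 98060001 (0.198) and chromosome 6 from 45560001 (0.196).

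The mean depth of the 282 boundaries was 0.346 in wildtype replicate 1, 0.342 in wildtype replicate 2, 0.326 in knock-out replicate 1 and 0.350 in knock-out replicate 2. The knock-out libraries lay on both sides of the wildtype pair, so that the genotypes overlapped. The means were 0.344 ± 0.0024 (SD, n = 2) in wildtype and 0.338 ± 0.0166 (SD, n = 2) in knock-out, a difference of -0.0060. The knock-out libraries differed from each other by 0.0235. Without knock-out replicate 1 the difference turned to +0.0058, so its direction rests on that library. Its direction also followed the profile that gave the boundaries, with -0.0310 for boundaries found in the wildtype profile and +0.0243 for those found in the knock-out profile. With each library divided by the SD of its scores, the difference was -0.0530 in SD units and the libraries no longer overlapped. With 2 libraries against 2, an exact two-sided permutation test cannot give a p below 0.333. No p is attached to these means, and below it is given only for contrasts between contexts or classes of boundaries.

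The scores themselves shifted. The mean floor was -0.599 and -0.601 in wildtype and -0.624 and -0.654 in knock-out. Each knock-out library was lower than either wildtype library, and the means differed by -0.0389. The gap was wider than the 0.0299 between the knock-out libraries, and leaving out knock-out replicate 2 brought it to -0.0239. The mean flank was -0.253 and -0.259 in wildtype and -0.298 and -0.304 in knock-out. Again both knock-out libraries were the lower ones, and the difference of -0.0448 was several times the spread within a genotype (SD 0.0044 and 0.0045). Floor and flank thus stood lower by similar amounts, and the depth between them differed little.

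A downward offset was also present in the mean over the bins of the negative compartment. Over the 45266 scored bins the mean score was -0.153 and -0.160 in wildtype and -0.221 in each knock-out library, a difference of -0.0644. Relative to these bins the boundary bins stood higher in knock-out than in wildtype, with a boundary mean minus bin mean of -0.446 and -0.441 in wildtype and -0.403 and -0.433 in knock-out. Dividing each library by the SD of its scores brought the floor difference to -0.0154 in SD units, with overlapping libraries, and centring each library on its median brought it to -0.0161. The flank difference kept its direction under both.

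**Figure D1:**
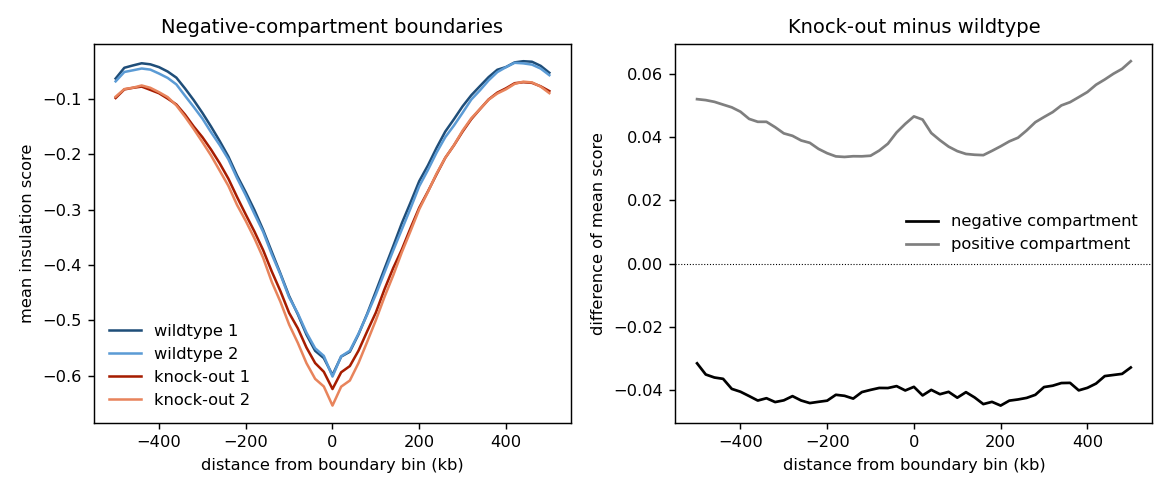
Left, mean insulation score (deposited score, no unit) of each of the 4 libraries against the distance in kb from the boundary bin, averaged over the 282 boundaries where a score was present. Right, knock-out minus wildtype of the same means, for the negative compartment (black, -0.0314 to -0.0448 across 500 kb on each side) and the positive compartment (grey, 0.0337 to 0.0640).

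Boundaries of the positive compartment differed the other way. Their mean floor was -0.180 and -0.163 in wildtype and -0.110 and -0.140 in knock-out. The knock-out libraries were the higher ones, by 0.0465, where they were the lower ones in the negative compartment. An upward offset was also present over the 44396 scored bins of the positive compartment. Their mean score was 0.196 and 0.202 in wildtype and 0.241 and 0.238 in knock-out, a difference of 0.0406. The opposite directions in the 2 compartments are therefore not particular to boundaries. The difference between contexts (negative minus positive) in floor was -0.418 and -0.438 in wildtype and -0.514 and -0.513 in knock-out, and both knock-out values lay below both wildtype values (exact two-sided permutation test over the 4 libraries, p = 0.333, the smallest it allows). The flank gave a like contrast, with -0.466 and -0.475 in wildtype and -0.543 and -0.555 in knock-out. For depth, negative minus positive overlapped between the genotypes, at -0.0480 and -0.0365 in wildtype and -0.0290 and -0.0413 in knock-out (exact permutation p = 0.667).

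At compartment borders the mean depth per library was 0.540 and 0.533 in wildtype and 0.487 and 0.519 in knock-out, a difference of -0.0338. The genotypes did not overlap there. Negative minus border depth was -0.194 and -0.191 in wildtype and -0.160 and -0.169 in knock-out. Both knock-out values lay above both wildtype values, a difference of 0.0278 (exact permutation p = 0.333).

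**Figure D2:**
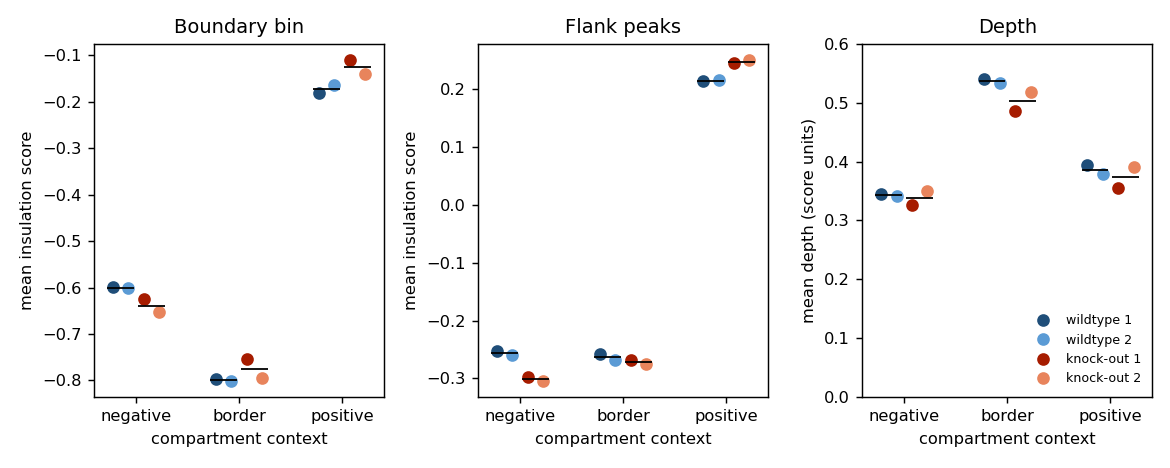
Mean score at the boundary bin (floor), mean score at the flank peaks and mean depth (score, no unit) for boundaries of the negative compartment, compartment borders and the positive compartment, with 1 point per library and a line at each genotype mean. In the negative compartment floor and flank sit lower in both knock-out libraries while depth overlaps, and at borders depth sits lower in both.

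Boundary by boundary, few changes in depth passed a test. Limma with Benjamini-Hochberg adjustment over all 1905 boundaries called 2 of the 282 at a threshold of 0.05, 1 deeper and 1 shallower in knock-out (0.709%). The share called over all boundaries was 1.73%, 0.42% deeper and 1.31% shallower, so the count is not above the background. At an unadjusted p under 0.05 there were 53 of the 282 (18.8%), against 17.5% over all boundaries. The SD over boundaries of the difference in depth between 2 libraries was 0.0656 for the wildtype pair and 0.0762 for the knock-out pair. It was 0.0777 to 0.0826 for pairs across genotypes, so single boundaries differed nearly as much between libraries of a genotype as between genotypes. Depth of both knock-out libraries was below both wildtype libraries at 69 boundaries (24.5%, against 33.5% over all boundaries) and above both at 58 (20.6%, against 15.2%).

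**Figure D3:**
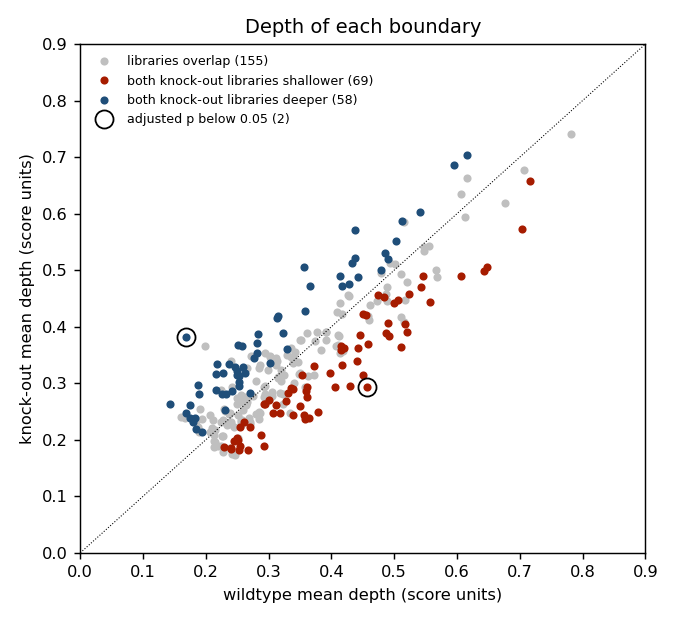
Mean depth in knock-out against mean depth in wildtype (score, no unit), 1 point for each of the 282 boundaries, with a dotted line at equal depth. The 69 boundaries shallower in both knock-out libraries are red, the 58 deeper in both are blue, those with overlapping libraries are grey, and circles mark the 2 that passed the test.

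The boundary called deeper was on chromosome X from 58600001 to 58620000. Its depth was 0.193 and 0.142 in wildtype and 0.404 and 0.359 in knock-out. The genotypes were well apart, and the difference was 0.214 ± 0.0346 (limma SE, adjusted p = 0.0046). The lowest bin within 100 kb lay at -80 and 0 kb in the wildtype libraries and at 0 and -40 kb in the knock-out libraries. Both wildtype depths were under 0.2, so the boundary met the depth minimum only through the knock-out libraries. The rule that chose the boundaries therefore favoured a gain in depth at this boundary. Its floor was -0.495 and -0.424 in wildtype and -0.945 and -0.853 in knock-out, a fall of 0.439 that passed limma over all bins (adjusted p = 0.0036) and was the farthest from 0 among called floors. The flank was also lower in knock-out, at -0.541 and -0.494 against -0.302 and -0.282. The call in depth was lost when wildtype replicate 2 (adjusted p from limma 0.0555), knock-out replicate 1 (0.278) or knock-out replicate 2 (0.172) was left out.

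The boundary called shallower was on chromosome 11 from 16260001 to 16280000, 3520 kb from the nearer end of its stretch of negative bins, the longest such distance among the 282. Its depth was 0.501 and 0.412 in wildtype and 0.251 and 0.337 in knock-out. The genotypes did not overlap, and the difference was -0.163 ± 0.0416 (limma SE), with an adjusted p of 0.04999, just under the threshold. The floors overlapped, at -0.532 and -0.433 in wildtype and -0.532 and -0.521 in knock-out. Read at these fixed bins, the loss of depth lay in the flank, which was -0.0311 and -0.0207 in wildtype and -0.281 and -0.184 in knock-out. The lowest bin within 100 kb lay at 40 and 0 kb in the wildtype libraries and at -60 and 100 kb in the knock-out libraries. In both knock-out libraries the depth was thus not read at their own lowest bin. Leaving out wildtype replicate 1 (adjusted p from limma 0.404), knock-out replicate 1 (0.348) or knock-out replicate 2 (0.172) ended the call.

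No other boundary passed in depth, but some had wide gaps between non-overlapping genotypes. On chromosome 10 from 38580001 depth was 0.471 and 0.549 in wildtype and 0.309 and 0.419 in knock-out (adjusted p from limma 0.0814). On chromosome 2 from 21240001 it was 0.678 and 0.609 in wildtype and 0.433 and 0.563 in knock-out (adjusted p from limma 0.137). Both were shallower in each knock-out library without passing the test. The other boundaries with the widest downward gaps were on chromosome 11 from 17220001, chromosome 10 from 45760001 and chromosome 17 from 41200001, with differences of -0.142, -0.136 and -0.134. The boundary on chromosome 11 from 17220001 lies in the same negative stretch of 8 Mb as the called one.

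In the other direction, depth on chromosome 1 from 14940001 was 0.396 and 0.316 in wildtype and 0.449 and 0.562 in knock-out (adjusted p from limma 0.0780). On chromosome 15 from 40920001 it was 0.441 and 0.432 in wildtype and 0.568 and 0.573 in knock-out (adjusted p from limma 0.102). Within each genotype the libraries on chromosome 15 were close, yet the difference of 0.134 did not pass. The remaining boundaries with wide upward gaps were on chromosome 2 from 86440001, chromosome 5 from 71800001 and chromosome 5 from 13720001, with differences of 0.122, 0.117 and 0.116. That on chromosome 2 had depths of 0.110 and 0.174 in wildtype, so it met the depth minimum of 0.2 only through the knock-out libraries. All of the boundaries with the widest upward gaps had a lower floor in both knock-out libraries. Since depth is the flank minus the floor, choosing gains in depth favours lower floors.

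**Figure D4:**
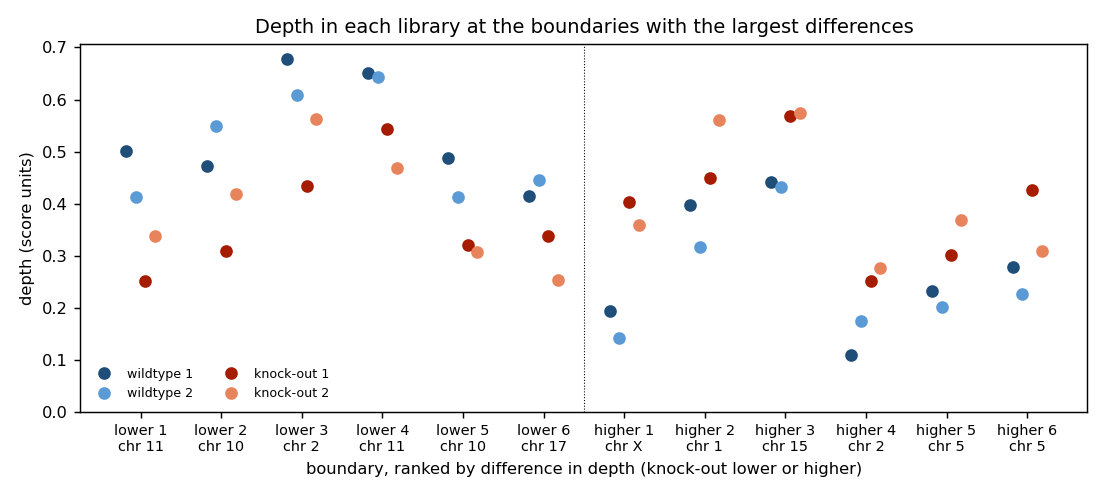
Depth (score, no unit) in each of the 4 libraries at the 6 boundaries with the widest downward and the 6 with the widest upward gaps between non-overlapping genotypes, named by chromosome and divided by the dotted line. The widest upward gap, on chromosome X, runs from 0.193 and 0.142 in wildtype to 0.404 and 0.359 in knock-out. The first boundary on each side of the line passed the test and the others did not.

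At the boundary bins themselves limma over 117252 bins called 35 of the 282 (12.4%), 31 lower in knock-out and 4 higher. Over all bins 22.4% were called, 11.2% lower and 11.2% higher, and over the bins of the negative compartment 23.1%, 20.8% lower and 2.32% higher. The share of boundary bins called lower, 11.0%, was thus near that of all bins and below that of the surrounding compartment. The median SE was 0.0490 at boundary bins and 0.0423 over the bins of the negative compartment. Leaving out wildtype replicate 1 left 11 calls in place of 35 (3.90%, with 7.86% over all bins), and leaving out wildtype replicate 2 left 7 (2.48%, with 8.06% over all bins). Scaling each library by its SD changed the split to 10 higher and 19 lower (10.3% called, below the 19.96% over all bins). Centring each library changed the split to 11 higher and 22 lower (11.7% called, below the 23.3% over all bins). After a running mean over 51 bins (1.02 Mb) was subtracted from each library 0 were called by limma, with 43 at an unadjusted p under 0.05. In that fit 0% of all bins were called, so the 0 is not particular to boundary bins. At the flank bins, 48 on the left (17.0%) and 46 on the right (16.3%) were called lower, below the 20.8% of the negative compartment. Called higher were 5 on the left (1.77%) and 14 on the right (4.96%), against 2.32% there.

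The 31 floors that fell spread over 17 chromosomes, with differences from -0.143 to -0.439 and a median of -0.193. The flank mean was lower at all 31, and 28 of them were deeper in knock-out. Since depth is the flank minus the floor, choosing low floors favours greater depth. After chromosome X, the largest falls were on chromosomes 14, 1 and 5. On chromosome 14 from 95480001 the floor was -0.248 and -0.233 in wildtype and -0.522 and -0.466 in knock-out (adjusted p from limma 0.0062). On chromosome 1 from 14940001 it was -0.537 and -0.499 in wildtype and -0.697 and -0.840 in knock-out (adjusted p from limma 0.0142). On chromosome 5 from 13720001 it was -0.294 and -0.190 in wildtype and -0.546 and -0.431 in knock-out (adjusted p from limma 0.0130). In each case the genotypes did not overlap, and knock-out was lower. The boundary on chromosome 14 had depths of 0.165 and 0.172 in wildtype and 0.238 and 0.256 in knock-out. It thus met the depth minimum of 0.2 only through the knock-out libraries. The calls on chromosomes 1 and 5 were lost without wildtype replicate 2 (adjusted p from limma 0.0604 and 0.0746).

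The 4 floors that rose were on chromosome 10 from 38580001, chromosome 1 from 98600001, chromosome 6 from 101600001 and chromosome 16 from 69920001. The largest, on chromosome 10, went from -1.16 and -1.19 in wildtype to -0.821 and -0.992 in knock-out (adjusted p from limma 0.0189). It is also the boundary with the widest downward gap in depth after the called one. The other rises were 0.171, 0.170 and 0.121 (adjusted p from limma 0.0362, 0.0410 and 0.0399). All 4 had a higher flank and less depth in knock-out, though choosing raised floors favours less depth. The boundary on chromosome 16 had depths of 0.245 and 0.234 in wildtype and 0.174 and 0.194 in knock-out. It thus met the depth minimum of 0.2 only through the wildtype libraries, so the rule that chose the boundaries favoured a loss of depth there. Each of these calls was lost without at least 1 wildtype library. Those on chromosomes 1, 6 and 16 were also lost without knock-out replicate 1. The call on chromosome 16 was lost with scaled libraries and without a trend as well (adjusted p from limma 0.0501 and 0.0550).

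Counts of non-overlapping libraries showed the shift more widely than the calls did. The floor of both knock-out libraries was below both wildtype libraries at 113 boundaries (40.1%, against 22.3% over all boundaries) and above at 39 (13.8%, against 38.2%). The flank was below at 153 (54.3%, against 32.8%) and above at 27 (9.57%, against 35.4%). Fewer boundaries were on the low side for depth than for either score. The mean floor was lower in knock-out on 18 of 20 chromosomes, the mean flank on 19 and the mean depth on 14. In both knock-out libraries at once, the floor was lower on 17 chromosomes, the flank on 18 and the depth on 8. No such count over chromosomes is given for all bins of the negative compartment, whose mean score was also lower in both knock-out libraries. Chromosome X held only 2 of the boundaries and chromosome 18 only 4. Across the 282 boundaries the floor difference and the flank difference went together (Pearson's r = 0.740), though neighbouring bins share contacts. The floor difference of replicate 1 and that of replicate 2 had an r of 0.504, and the depth difference an r of 0.210. The replicate numbers only name libraries here, and with the numbers crossed these were 0.489 and 0.232.

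The floor difference varied more with position inside the compartment than with run length, domain length, neighbouring boundaries, eigenvector, flank asymmetry or mean depth, each taken in classes. A negative run is a stretch of consecutive 200 kb bins below 0 in wildtype. The boundaries lay in 199 of the 579 runs of at least 3 bins, and 145 of these 199 held only 1. Over the boundaries, the median length of the run was 3 Mb (0.6 to 10.4 Mb) and the median distance to the nearer run end was 510 kb. The boundaries were ordered by that distance into 3 classes of 94.

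In the class nearest the run end (200 to 320 kb) the mean floor was -0.699 and -0.712 in wildtype and -0.685 and -0.712 in knock-out. The genotypes overlapped, with a difference of 0.0070. In the middle class (320 to 800 kb) it was -0.549 and -0.543 in wildtype and -0.565 and -0.597 in knock-out, a difference of -0.0347. In the innermost class (800 to 3520 kb) it was -0.548 and -0.549 in wildtype and -0.623 and -0.652 in knock-out, a difference of -0.0889. Both knock-out libraries were lower in the middle and innermost classes. The floors called lower by limma numbered 3, 10 and 18 in the classes from the run end inward (3.19%, 10.6% and 19.1%). Over all bins of the negative compartment, divided at the same distances, 8.29%, 15.1% and 29.1% were called lower, so the share at boundaries was below that background in every class.

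The contrast between the innermost and the outermost class was larger than the spread within a genotype. Innermost minus outermost floor was 0.151 and 0.163 in wildtype and 0.0620 and 0.0596 in knock-out, a difference of -0.0959 (exact two-sided permutation p = 0.333, the smallest possible). The same contrast in the flank differed by -0.0716. In depth it differed by 0.0243, with -0.0524 and -0.0645 in wildtype and -0.0272 and -0.0410 in knock-out. The depth of the class nearest the run end was 0.378 and 0.382 in wildtype and 0.345 and 0.375 in knock-out. Both knock-out libraries were lower there, with a difference of -0.0200 against 0.0299 between the knock-out libraries themselves. In the innermost class depth was 0.325 and 0.317 in wildtype and 0.318 and 0.334 in knock-out, and the genotypes overlapped.

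The gradient was not particular to boundaries. Over all bins of the negative compartment, divided at 320 and 800 kb from the run end, the difference in mean score was -0.0145, -0.0502 and -0.0913. The flank was lower in both knock-out libraries at 30, 49 and 74 of 94 boundaries in the classes from the run end inward. It was higher in both at 14, 12 and 1 of 94. Over all 1905 boundaries the flank was lower in both at 624 (32.8%) and higher in both at 674 (35.4%). Across the 282 boundaries Spearman's rho of distance was -0.450 with the floor difference, -0.420 with the flank difference and 0.174 with the depth difference.

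**Figure D5:**
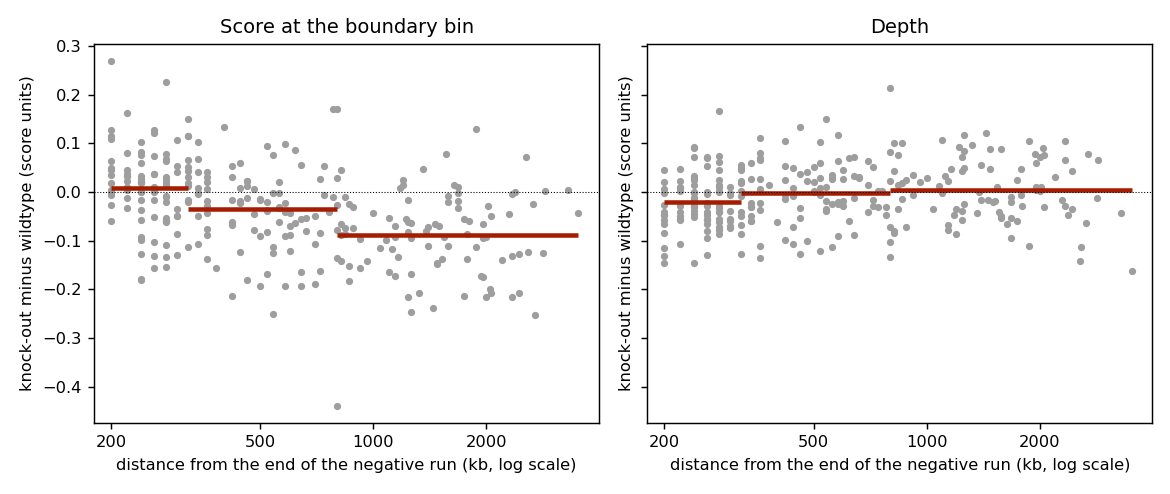
Difference between knock-out and wildtype means (score, no unit) in floor (left) and depth (right) against the distance from the end of the negative run (kb, log axis), 1 point per boundary, with a bar at the mean of each class of 94. The floor means step down from 0.0070 to -0.0347 and -0.0889 from the run end inward, while the depth means lie between -0.0200 and 0.0044.

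Other sides of the domain context gave smaller steps. By length of the negative run, the floor difference was -0.0039, -0.0556 and -0.0571 in classes of 94 from the shortest (0.6 to 2 Mb) to the longest (4.4 to 10.4 Mb). Run length and distance from the end move together, and their parts were not separated. By mean length of the adjoining domains it was -0.0167, -0.0349 and -0.0577 in classes of 83, and depth differences stayed between -0.0107 and -0.0023. Boundaries with 0 neighbouring boundaries inside the negative compartment (100) had a floor difference of -0.0211, those with 1 (106) -0.0454 and those with both neighbours (43) -0.0501. The floor was lower in both knock-out libraries in each of these classes except that of the shortest runs, where they overlapped.

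By depth in the mean profile, the 94 deepest boundaries had mean depths of 0.492 and 0.485 in wildtype and 0.451 and 0.479 in knock-out. Knock-out was lower in both libraries, with a difference of -0.0236. The 94 shallowest had 0.231 and 0.233 in wildtype and 0.227 and 0.242 in knock-out, and overlapped. Mean depth over all 4 libraries defined these classes, and the difference between the classes was not tested.

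Single libraries gave back most of the boundaries. Taken alone, with the same depth minimum and within 40 kb, wildtype replicates 1 and 2 gave back 242 and 232 of the 282, and knock-out replicates 1 and 2 gave back 221 and 240. Every library missed some, and knock-out replicate 1 missed the most. All 4 libraries gave back 147 (52.1%), against 71.6% of positive-compartment and 71.5% of border boundaries. The lowest bin fell on the same 20 kb bin in all 4 libraries at 22 boundaries (7.80%), against 23.6% in the positive compartment. No test is attached to these shares, since the contexts differ in depth. The profiles of each genotype in 10 kb bins, which have no replicates, covered 279 of the 282. There depth averaged 0.294 for wildtype against 0.297 for knock-out, and the floor difference was -0.0389.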

How the data were processed

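Insulation scores of 4 Hi-C libraries in 20 kb bins, 1 profile per genotype in 10 kb bins and a compartment eigenvector per genotype in 200 kb bins were used as the authors deposited them, each treated as a score, per the file headers. Coordinates follow mm9, which the submitters' processing notes name. Aligner, filters, balancing, pooling, log base and insulation window are not given in the sources used here. Boundaries, their classes and the lists were chosen with earlier results of these data known. Boundaries, floors, flanks and depths were computed with Python 3.11.15, numpy 2.4.6 and pandas 2.3.3. Limma 3.58.1 in R 4.3.3 (lmFit, eBayes with a trend) tested genotype over all 117252 bins scored in every library and over all 1905 boundaries, with Benjamini-Hochberg adjustment at 0.05, after the step was tested on simulated data. Means over boundaries were compared over the 4 libraries with exact permutation tests. Regions named were the 6 deepest boundaries, the 6 widest non-overlapping gaps in depth each way, every boundary called in depth, the 4 largest called changes of floor each way, and the 3 nearest the depth minimum on each side. Alternatives left out each library or chromosome X, scaled or centred libraries, changed the depth minimum, window, flank reading, compartment rule, boundary profile or variance model, took medians, or removed a running mean. The deposited difference between genotypes (2 columns) was not used. Genes are not named and no sequence is shown, because the annotation at hand is of another build.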

Additional observations from a re-analysis of the deposited data

How the results depend on the processing

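Lower floor and flank in knock-out kept their direction in all 11 alternatives run for each, with the floor difference between -0.0538 and -0.0239 when a library was left out. The mean depth difference did not. It was +0.0058 without knock-out replicate 1 (the lowest without a library, -0.0178, was without knock-out replicate 2), +0.0243 for the 304 boundaries of the knock-out profile, +0.00053 with medians and +0.0027 in the 10 kb profiles. Depth of negative minus positive boundaries turned from 0.0071 to -0.00064 with a depth minimum of 0.3 and to -0.0053 for boundaries of the wildtype profile. The cause was not tested. The 2 boundaries called in depth by limma were not always called when a library was left out. With scaled libraries 14 were called (4.96%, below the 7.09% called over all boundaries). With a depth minimum of 0.3, 8 of 152 were called (5.26%, below 6.53%). A window of 5 bins gave 1 of 52 (1.92%, above the 0.223% over all boundaries). A window of 20 bins gave 0 of 396 (0.0558% over all boundaries). Without chromosome X 1 of 280 was called (0.357%, below 1.94%). With each library's own highest flank it was 1 (0.355%, below 1.21%). Boundaries of the wildtype profile gave 9 (3.07%, below 4.29%). Those of the knock-out profile gave 1 of 304 (0.329%, above 0.105%). Without a trend 0 were called (0.472% over all boundaries), and with the title suffix as a term 4. The 35 called floors became 7 to 49 without a library (11 and 7 without wildtype replicates 1 and 2) and 0 after subtraction of the running mean. Without a library, the depth difference on chromosome 4 from 113900001 ranged from -0.164 to 0.0817 (0.0170 without wildtype replicate 2), that on chromosome 17 from 37440001 from -0.0626 to 0.0018 and that on chromosome 17 from 83380001 from -0.152 to 0.0350. Centring, the title suffix and the alternatives for domain context and borders were chosen after seeing the data. No paired analysis was possible because the replicate numbers follow accession order and only name libraries. The shared title suffix, of unknown meaning, groups 1 library of each genotype and was run as a term. It gave the 4 depth calls above (1.42%, below the 2.05% called over all boundaries). Floor calls numbered 42 (14.9%, below the 22.8% called over all bins). Read depth is unknown, so counting error could not be separated from the spread between libraries.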

Other observations

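The 282 boundaries were unevenly spread over chromosomes. Chromosome 2 held 33 and chromosome 9 held 22, while chromosome 18 held 4 and chromosome X held 2. Per 10 Mb of scored negative compartment there were 5.24 on chromosome 19, 4.81 on chromosome 9 and 4.74 on chromosome 2, against 1.32 on chromosome 18 and 0.981 on chromosome X. The run with the most boundaries was on chromosome 17 from 66600001 to 71000000, where 6 lay within 4.4 Mb. Its last boundary, from 70700001, was the deepest of the 6, with a mean depth of 0.512 in wildtype and 0.587 in knock-out. A run on chromosome 2 from 112400001 to 116800000 held 5. Both runs were picked after their counts were seen.

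The boundaries lay toward the weaker end of the negative compartment. The wildtype eigenvector of their bins had a median percentile of 29.4 within its chromosome, against 19.8 for all 4821 bins of 200 kb that lie inside the negative compartment. The knock-out eigenvector was lower than the wildtype eigenvector at 127 of the 282 (45.0%), against 57.0% of those 4821 bins. The sign turned positive in knock-out at 2 of the 282, and all 3 bins stayed negative at 270. The eigenvector had 1 value per genotype, so these counts have no replicate check.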
